A study of Mus musculus with 71 samples.

Results

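Egr1, Egr2, Egr3, Egr4, Arc, Npas4 and Ier2 are activity-regulated genes whose RNA rises within minutes to hours after a neuron has been active. These 7 genes were chosen by symbol from the 37681 genes of the RNA-seq tables, and all 7 were found in each of the 6 tables. RNA-seq covered the nucleus accumbens (NAc), ventral tegmental area (VTA) and prefrontal cortex (PFC) of wild type C57BL/6 mice that had self-administered cocaine at 0.7 mg/kg/infusion or saline for 21 days, to find which genes differed early and late in abstinence. The mice were adults of 8 weeks, both treatments had first been trained to work for food and carried a jugular catheter, and they were sacrificed after 1 or 28 days of abstinence. The 3 regions, 2 treatments and 2 time points made 12 groups of 6 libraries, with 5 in the saline VTA group at 28 days and 71 libraries in all. The methods name both sexes, but the labels give none for a library, nor do they say whether a library came from 1 mouse, so the p-values measure the spread between these libraries.

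Egr1 to Egr4 are zinc finger transcription factors that bind a shared GC-rich site, and their transcription is driven by SRF with its ETS partners and by CREB downstream of ERK and calcium signalling. Some of them in turn induce Nab2, which binds such Egr proteins and holds back their activity. Npas4 is a basic helix-loop-helix transcription factor that answers calcium entry and adjusts inhibitory synapses. Arc is the effector of the set, a cytoskeleton-associated protein that promotes removal of AMPA receptors from synapses, and its enhancer is itself bound by Egr factors. Ier2 encodes a small nuclear protein of the immediate early class. In striatum and cortex these genes are known for rapid induction by acute cocaine.

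The promoter table used here, from RefSeq (GRCm38.p6), held only 3 of the members, Egr2, Egr4 and Npas4, so only their sequences are printed. Each sequence runs from 250 bases before to 50 bases after a transcription start, 5′ to 3′ on the gene's own strand, and for Egr2 the most downstream of its 5 listed starts was taken. Capitals mark the CREB half-site TGACG, read on either strand (CGTCA on the reverse), and the CArG box, the site of SRF.
Egr2, chr10:67537680-67537979, forward strand: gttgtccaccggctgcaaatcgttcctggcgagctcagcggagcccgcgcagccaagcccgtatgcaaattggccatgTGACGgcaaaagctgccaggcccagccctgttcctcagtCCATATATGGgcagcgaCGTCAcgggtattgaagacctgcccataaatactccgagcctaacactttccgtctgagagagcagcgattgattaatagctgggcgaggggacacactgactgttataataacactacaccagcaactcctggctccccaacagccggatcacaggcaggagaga
Egr4, chr6:85513540-85513839, reverse strand: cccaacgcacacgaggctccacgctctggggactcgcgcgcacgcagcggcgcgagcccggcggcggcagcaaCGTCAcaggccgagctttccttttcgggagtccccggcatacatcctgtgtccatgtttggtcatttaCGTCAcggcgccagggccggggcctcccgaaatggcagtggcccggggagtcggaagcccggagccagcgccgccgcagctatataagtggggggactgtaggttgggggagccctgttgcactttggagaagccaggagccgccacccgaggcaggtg
Npas4, chr19:4989922-4990221, reverse strand: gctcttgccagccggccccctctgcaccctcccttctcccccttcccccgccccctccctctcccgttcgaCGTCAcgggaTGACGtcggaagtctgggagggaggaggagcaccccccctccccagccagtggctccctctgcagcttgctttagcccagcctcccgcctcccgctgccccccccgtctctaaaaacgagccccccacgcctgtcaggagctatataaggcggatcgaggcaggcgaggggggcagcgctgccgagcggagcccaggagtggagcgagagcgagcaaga

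Each of the 3 windows held 2 copies of the half-site, which 20.8% of all 32851 listed windows of this length held at least once. The copies began at positions -172 and -116 in Egr2, -177 and -109 in Egr4, and -179 and -169 in Npas4, counted from the start. The CArG box was found in Egr2 alone of the 3, at -133 to -124, and in 1.63% of all windows. The full CREB palindrome TGACGTCA, which contains the half-site, was in none of the 3 and in 1.79% of all windows, and the Egr site GCGNGGGCG was in none of the 3 and in 5.55% of all windows. Both strands were searched and a match is a description of letters, not of binding.

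In the mm9 annotation (GENCODE M1), all 7 are protein-coding genes. Of the Egr genes, Egr1 (ENSMUSG00000038418) lies on the forward strand of chr18:35020861-35024638, Egr2 (ENSMUSG00000037868) on the forward strand of chr10:66998223-67004936, Egr3 (ENSMUSG00000033730) on the forward strand of chr14:70477252-70479964 and Egr4 (ENSMUSG00000071341) on the reverse strand of chr6:85461125-85463583. The other members all lie on reverse strands, with Arc (ENSMUSG00000022602) at chr15:74499513-74503000, Npas4 (ENSMUSG00000045903) at chr19:4984355-4989971 and Ier2 (ENSMUSG00000053560) at chr8:87185230-87186751. Values are per gene, not per exon or UTR.

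**Figure D1:**
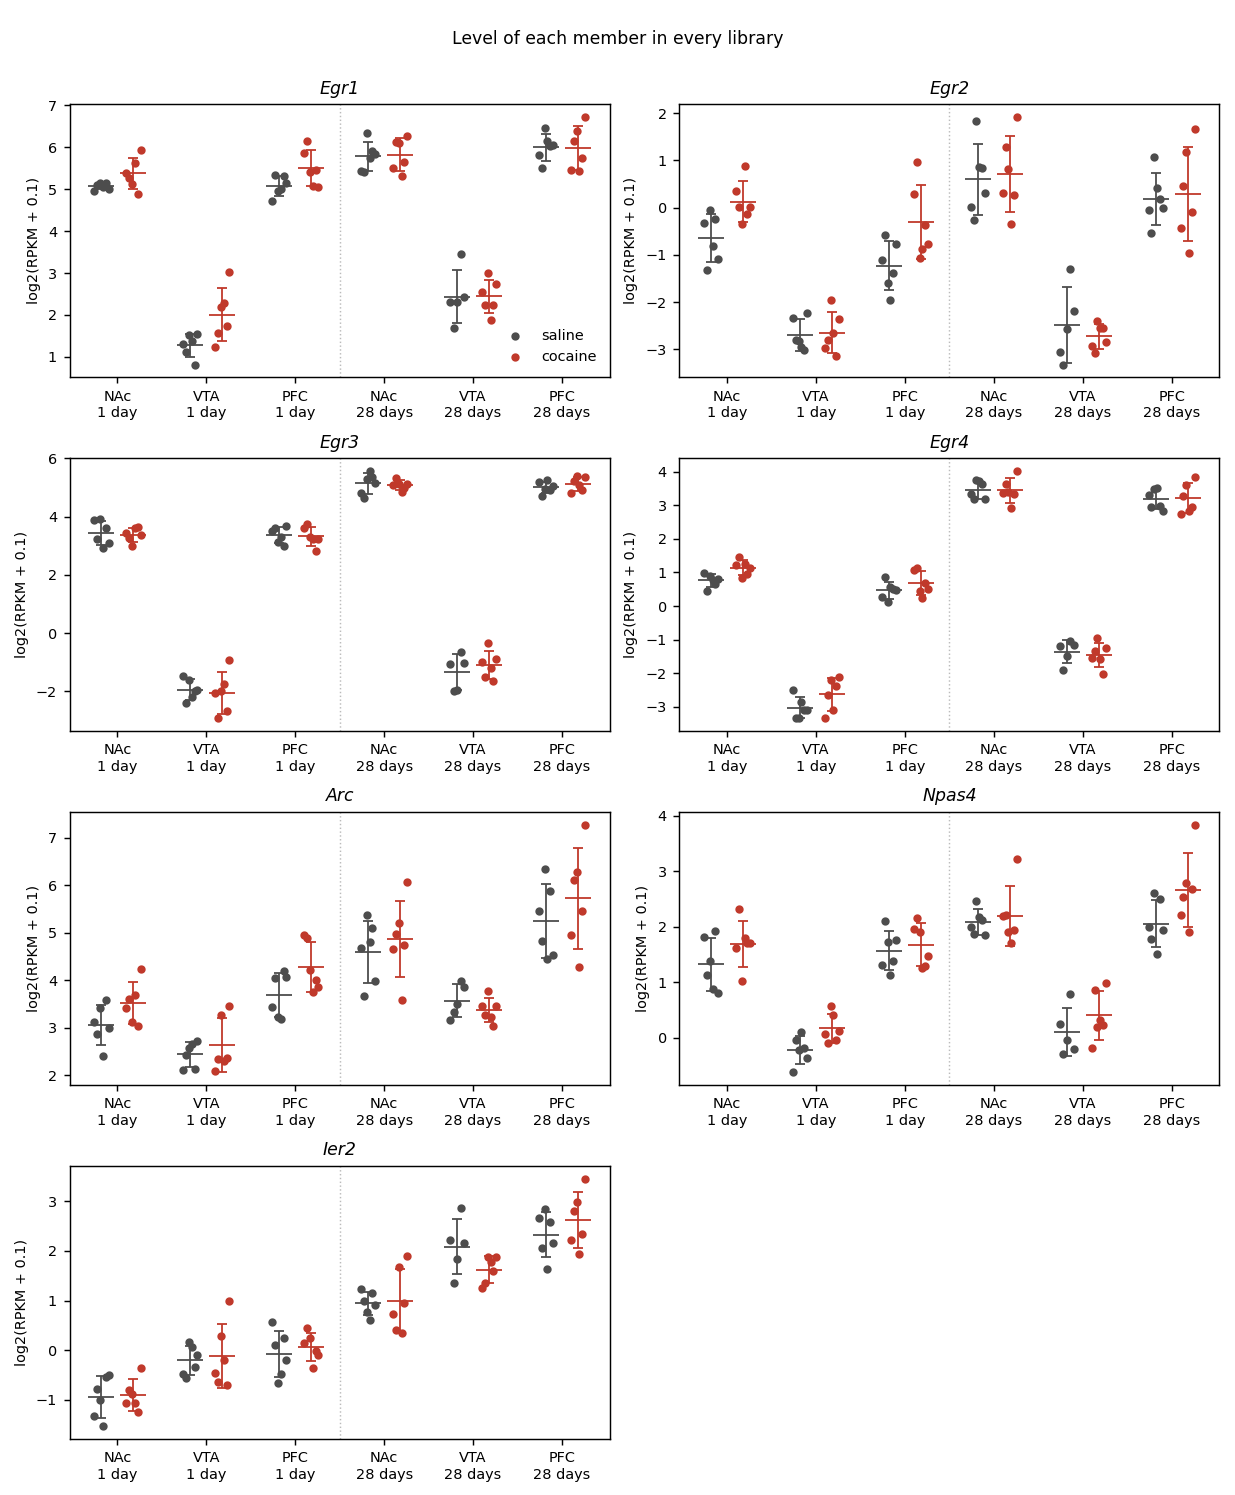
Level of each of the 7 genes in every library, as log2(RPKM + 0.1), by region and days of abstinence; points are libraries (grey saline, red cocaine) and bars are the mean ± SD of a group. Egr3 and Egr4 sit far lower in all VTA libraries than in the NAc and PFC, and levels at 28 days lie above those at 1 day for most genes.

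Levels are given as RPKM, which corrects read numbers for gene length and library depth, so that genes can be compared per length. The authors' RPKM were used for the VTA and PFC at 1 day, and for the count tables RPKM was computed with the same gene lengths. Libraries held between 20971967 and 49700932 reads on genes. Marker genes matched the labelled regions: the 8 medium spiny neuron markers summed to between 1617 and 3682 RPKM in NAc libraries, and the 7 matched cortical excitatory markers to between 494 and 809 RPKM in PFC libraries. The 8 midbrain dopamine markers summed to between 646 and 2577 RPKM in VTA libraries. Saline PFC library 4 at 28 days stood apart, with 1324 RPKM of medium spiny markers against 92.4 to 126 RPKM in the other PFC libraries at 28 days and the lowest cortical sum. Because punches are bulk tissue, fewer cells of a type and less RNA per cell cannot be told apart.

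The 4 Egr genes were far lower in the VTA than in the other regions, Npas4 and Arc were lower by less, and Ier2 was higher in the VTA than in the NAc. Among saline groups at 28 days, mean Egr3 was 36.1 ± 8.54 RPKM in the NAc (SD, n = 6), 32.4 ± 4.27 in the PFC (n = 6) and 0.322 ± 0.168 in the VTA (n = 5). Egr1, the most abundant member in the NAc and PFC, was 56.5 ± 14.1, 65.6 ± 14.4 and 5.81 ± 2.96 RPKM in the NAc, PFC and VTA. Egr4 was 11.1 ± 2.08, 9.11 ± 1.92 and 0.298 ± 0.0866 RPKM, and Egr2 was 1.61 ± 0.997, 1.10 ± 0.494 and 0.104 ± 0.124 RPKM, in the same order. In the VTA the most abundant member was Arc, at 12.0 ± 2.94 RPKM against 26.3 ± 10.9 in the NAc and 42.8 ± 23.6 in the PFC. Ier2 was the exception, with 1.85 ± 0.313 RPKM in the NAc, 4.42 ± 1.77 in the VTA and 5.11 ± 1.54 in the PFC.

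In 1 edgeR model over the 28-day libraries, with Benjamini-Hochberg adjustment, 7 of 7 members differed between saline NAc and VTA at an adjusted p under 0.05, where 67.1% of all 17679 genes tested did so. The log2 difference, NAc minus VTA, was 6.91 ± 0.25 (SE) for Egr3, 5.32 ± 0.27 for Egr4, 4.00 ± 0.61 for Egr2 and 3.41 ± 0.29 for Egr1. It was 2.15 ± 0.31 for Npas4, 1.25 ± 0.42 for Arc and -1.15 ± 0.28 for Ier2 (edgeR adjusted p between 1.54e-21 for Egr3 and 0.00956 for Arc). The Egr3 difference exceeded that of 99.9% of genes tested. Between the VTA and PFC, 6 of 7 members were called, all lower in the VTA, against 29.2% of genes called lower, and Ier2 was not called (log2 difference -0.35 ± 0.27, edgeR adjusted p = 0.271). Egr2 did not pass the filter within the VTA at 28 days, with 0 to 37 reads per saline library. It entered the joint model through the NAc and PFC, so its calls against the VTA were favoured in advance and add no support.

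Between saline NAc and PFC this model, which treats the libraries as independent, called Ier2 alone, lower in the NAc (log2 difference -1.50 ± 0.27, edgeR adjusted p = 2.48e-05), where 46.5% of genes were called in either direction. The call of Ier2 alone held without PFC saline library 4. The other members had log2 differences between -0.72 (Arc) and 0.54 (Egr2), and their groups overlapped. At 1 day, on recovered reads, Arc was called as well, with a log2 difference of -0.69 (edgeR adjusted p = 0.0258).

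Of the lists of related genes, the 23 regulators and partners were the most unevenly spread, with 17 higher and 2 lower in the NAc than in the VTA and a median log2 difference of 1.36 against -0.03 over all genes. The CREB coactivator gene Crtc1 (2.17 ± 0.06), the SRF coactivator gene Mkl2 (2.39 ± 0.09) and the calcium signalling kinase gene Camk2a (3.96 ± 0.16) had the smallest p there. Of the 18 other early response transcription factors, 8 were higher and 5 lower in the NAc than in the VTA, led by Fosb (3.79 ± 0.24), Junb (2.69 ± 0.26) and Nr4a3 (2.49 ± 0.27). Of the 24 other effectors 10 were higher and 8 lower, among them the kinase Plk2 (3.14 ± 0.13) and the synaptic scaffold gene Homer1 (2.92 ± 0.14) on the higher side and Plk3 (-1.18 ± 0.10) on the lower. Over all 17679 genes tested 67.1% were called in either direction, and the counts of these last 2 lists lay near that share.

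Ordered by mean level over the 12 groups, all 4 VTA groups came last for Egr1, Egr2, Egr3, Egr4 and Npas4, and the highest group was PFC cocaine at 28 days for Egr1, Arc, Npas4 and Ier2. Most neighbours in these orders lay within their spread. Of the 11 steps between neighbouring groups, the number larger than the larger SD of the 2 groups was 4 for Egr4, 2 each for Egr2, Egr3 and Ier2, 1 each for Egr1 and Npas4, and 0 for Arc. For Egr1 and Npas4 that single step separated the NAc and PFC groups from the VTA.

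No member was called between cocaine and saline in any region at either time point. In the NAc at 1 day, edgeR called 0 of 7 members and 2 of 15878 genes (0.0126%), and DESeq2 also called 0 members. At an unadjusted p under 0.05 there were 4 members by either tool, Egr1, Egr2, Egr4 and Arc, all higher after cocaine, where 2.76% of genes were higher at that threshold in edgeR. The smallest adjusted p of a member was 0.99 in edgeR. No member had all cocaine libraries above all saline libraries in any table. The share of genes that did was 0.157% in the NAc, 1.3% in the VTA and 0.0832% in the PFC at 1 day, and 0.16%, 0.98% and 0.0796% at 28 days.

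Egr2 had the largest difference in the NAc at 1 day. Its lowest, median and highest RPKM were 0.683, 0.903 and 1.73 after cocaine and 0.301, 0.581 and 0.861 after saline, from 22 to 134 reads per library. Of the 6 cocaine libraries, 4 lay above the highest saline library, and the log2 fold change was 0.87 ± 0.27 (SE, edgeR unadjusted p = 0.00637, adjusted p = 0.99). Egr4 ran from 1.68 over a median of 2.17 to 2.63 RPKM after cocaine and from 1.27 over 1.64 to 1.88 after saline. Again 4 of 6 cocaine libraries exceeded every saline library, with a log2 fold change of 0.41 ± 0.13 (edgeR unadjusted p = 0.00775, adjusted p = 0.99).

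Egr1 was tightly held in saline NAc, from 31.1 to 35.5 RPKM (median 33.8), and wide after cocaine, from 29.7 to 61.6 RPKM (median 40.2). The cocaine libraries thus lay on both sides of saline, 4 above its highest and 1 below its lowest, and the log2 fold change was 0.37 ± 0.15 (edgeR unadjusted p = 0.0249, adjusted p = 1.00). Arc had 8.10, 11.3 and 18.8 RPKM as lowest, median and highest after cocaine and 5.21, 8.25 and 12.0 after saline, with a log2 fold change of 0.50 ± 0.21 (edgeR unadjusted p = 0.0351, adjusted p = 1.00). Cocaine library 6 was the highest of the NAc at 1 day for both genes. The same library had the highest sum of the 7 cortical excitatory markers, 313 RPKM, against 30.1 to 196 RPKM in the other 5 cocaine libraries and 35.5 to 239 RPKM in saline. Without it the log2 fold change was 0.23 for Egr1 and 0.31 for Arc, with unadjusted p of 0.0658 and 0.112 in edgeR, while Egr2 (0.90) and Egr4 (0.41) kept theirs. The part of cortical tissue in these values was not tested in the NAc.

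Npas4, Egr3 and Ier2 were not under an unadjusted p of 0.05 in the NAc at 1 day. Npas4 had a log2 fold change of 0.39 ± 0.22 (edgeR unadjusted p = 0.099), Egr3 of -0.07 ± 0.16 and Ier2 of 0.07 ± 0.26, and 0 and 1 of the 6 cocaine libraries exceeded every saline library for Egr3 and Ier2. Ier2 was measured from only 10 to 30 reads per library there. Over the 7 members the median log2 fold change was 0.39, against -0.0012 over all genes tested.

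The related lists held no call in the NAc at 1 day. Of the 18 other early response transcription factors, 0 were called by edgeR, 4 were higher at an unadjusted p under 0.05 and none lower, with the orphan receptor gene Nr4a3 (0.82 ± 0.18, adjusted p = 0.511), Fos (0.95 ± 0.27, adjusted p = 0.95) and Nr4a1 (0.46 ± 0.15, adjusted p = 0.99) leading. Nr4a3 ran from 2.47 to 4.92 RPKM after cocaine and from 1.45 to 2.87 after saline. Of the 24 other effectors 5 were higher and none lower, led by the ADP-ribosyltransferase gene Tiparp (0.34 ± 0.09), the kinase Sgk1 (0.53 ± 0.17) and the receptor gene Gpr3 (0.63 ± 0.21), and of the 23 regulators and partners 2 were higher, Arnt (0.17 ± 0.07) and Elk4 (0.15 ± 0.07), none of them called.

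**Figure D2:**
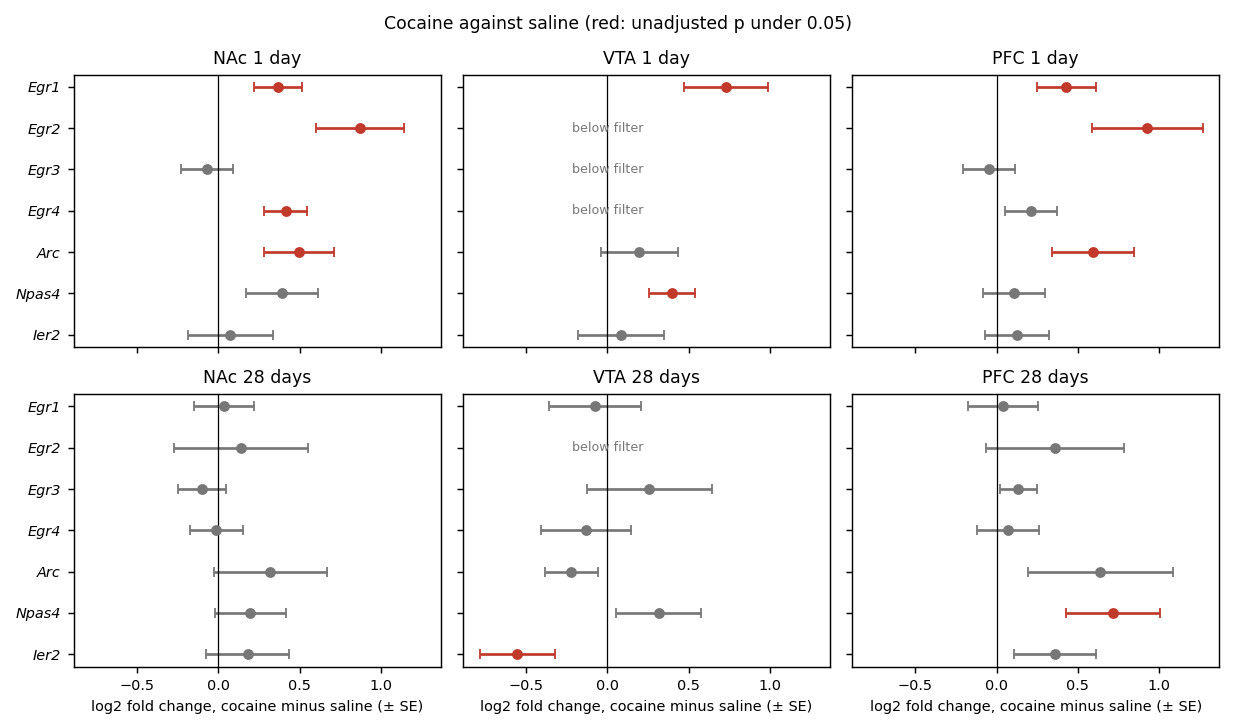
Log2 fold change, cocaine minus saline, ± SE for each of the 7 genes in the 6 tables, with red for an unadjusted p under 0.05 and grey otherwise; no value passed adjustment over all genes. At 1 day the red points are all to the right of 0, and at 28 days there is 1 on each side, Npas4 in the PFC and Ier2 in the VTA.

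In the PFC at 1 day, the same direction was seen for Egr1, Egr2 and Arc. limma on log2(RPKM + 0.1) called 0 of 7 members and 1 of 14427 genes (0.00693%), and edgeR on recovered reads also called 0 members. The number of members at an unadjusted p under 0.05 was 3 by either tool, all higher, where 1.64% of genes were higher at that threshold in limma. Fold changes from limma are on the log2(RPKM + 0.1) scale, which understates the change of low genes such as Egr2. Egr2 had 0.375, 0.579 and 1.85 RPKM as lowest, median and highest after cocaine and 0.159, 0.323 and 0.571 after saline, a log2 fold change of 0.93 ± 0.34 (limma unadjusted p = 0.0172, adjusted p = 0.918) that was 1.26 in edgeR on recovered reads. Arc had 13.5, 17.3 and 31.1 RPKM after cocaine and 8.95, 13.6 and 18.2 after saline (0.59 ± 0.25, limma unadjusted p = 0.0353), and Egr1 had 33.2, 43.3 and 71.6 after cocaine and 26.3, 33.7 and 40.4 after saline (0.43 ± 0.18, limma unadjusted p = 0.0351).

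In the PFC at 1 day 2 cocaine libraries stood highest. Cocaine library 2 was the highest of its group for 6 of 7 members and cocaine library 1 for the other, and their mean deviations from the group were 0.61 and 0.39 on the log2 scale. Their Arc levels, 29.5 and 31.1 RPKM, stood above every other PFC library at 1 day. Egr4 (0.21 ± 0.16), Npas4 (0.11 ± 0.19), Ier2 (0.13 ± 0.20) and Egr3 (-0.05 ± 0.16) had at most 2 of 6 cocaine libraries above every saline library. Of the related lists, Fos (0.74 ± 0.24, limma adjusted p = 0.918) was the 1 early response transcription factor of 16 tested at an unadjusted p under 0.05, and 6 of 24 effectors were higher, led by the ERK phosphatase gene Dusp5 (0.31 ± 0.08), Tiparp (0.36 ± 0.09) and Arl4d (0.49 ± 0.15), with 0 called.

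In the VTA at 1 day only 4 members passed the filter of a mean of 0.5 RPKM. Egr2, Egr3 and Egr4 failed it, with at most 11, 15 and 7 reads in any library. limma called 0 of the 4 and 28 of 15042 genes (0.186%), and edgeR on recovered reads called 0 members. Egr1 and Npas4 were higher at an unadjusted p under 0.05 by either tool, where 11.1% of genes were higher at that threshold in limma. Egr1 ran from 2.25 over a median of 3.86 to 8.00 RPKM after cocaine and from 1.66 over 2.44 to 2.80 after saline, and 5 of 6 cocaine libraries exceeded every saline library (log2 fold change 0.73 ± 0.26, limma unadjusted p = 0.0149, adjusted p = 0.23). Npas4 ran from 0.834 over 0.963 to 1.39 RPKM after cocaine and from 0.547 over 0.766 to 0.968 after saline, with 3 of 6 above every saline library (0.40 ± 0.14, limma unadjusted p = 0.0155, adjusted p = 0.233). Arc (0.20 ± 0.24) and Ier2 (0.08 ± 0.27) did not separate.

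Markers of other cells moved with treatment in these VTA libraries. Cocaine libraries 3 and 6 had sums of 101 and 109 RPKM for the 7 cortical excitatory markers, none of which was at 0, against 49.0 to 69.5 RPKM in the other 10 libraries. The same libraries were the highest of their group in all 4 members, library 6 for Egr1 (8.00 RPKM), Arc (10.9) and Ier2 (1.88) and library 3 for Npas4 (1.39). Of the 7 cortical markers 5 were tested, of which 3 were higher and 1 lower at an unadjusted p under 0.05 in limma, with 0 called. Dopamine markers summed to a median of 1188 RPKM after cocaine and 1932 after saline, with 5 of 7 tested lower at an unadjusted p under 0.05. The 8 microglia markers summed to between 95.8 and 168 RPKM after cocaine and between 145 and 228 after saline, and all 8 had log2 fold changes below 0 (median -0.49), 7 of them at an unadjusted p under 0.05. The 8 endothelial markers had medians of 108 and 85.2 RPKM and log2 fold changes above 0, 1 of them at that threshold. No marker of the dopamine, microglia and endothelial lists was called by limma, and their part in the members' values was not tested. With the mean cortical marker level as a covariate, the log2 fold change was 0.37 ± 0.31 for Egr1 and 0.44 ± 0.19 for Npas4 (limma adjusted p = 0.872 and 0.641), and those of Arc (-0.23) and Ier2 (-0.31) turned below 0. The calcium signalling kinase gene Camk2a (0.59 ± 0.09, limma adjusted p = 0.0328) was the 1 called gene of the 23 regulators and partners. Of the early response transcription factors 7 of 16 were higher at an unadjusted p under 0.05, led by Nr4a3 (0.96 ± 0.24), Fosl2 (0.90 ± 0.30) and Klf4 (0.88 ± 0.35), and of the other effectors 6 of 24, led by Trib1 (0.42 ± 0.11), Sgk1 (1.11 ± 0.36) and Dusp5 (0.92 ± 0.33), with 0 called and none lower in either list.

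At 28 days in the NAc no member separated the treatments. edgeR called 0 of 7 members and 0 of 16295 genes (0%), with 0 members at an unadjusted p under 0.05 where 6.76% of genes were, and DESeq2 also called 0 members and put 0 under 0.05. The log2 fold changes were 0.04 ± 0.18 for Egr1, 0.14 ± 0.41 for Egr2, -0.10 ± 0.14 for Egr3, -0.01 ± 0.16 for Egr4, 0.32 ± 0.34 for Arc, 0.20 ± 0.22 for Npas4 and 0.18 ± 0.25 for Ier2. Cocaine library 6 was the highest of its group for 6 of 7 members, with 66.6 RPKM of Arc against 11.8 to 36.7 in the other 5 cocaine libraries. Without it the values of Egr1, Egr2, Npas4 and Ier2 turned below 0 (-0.05, -0.22, -0.10 and -0.06). Of the related lists 2 of 24 effectors were higher at an unadjusted p under 0.05, the granin gene Scg2 (0.31 ± 0.10) and Vgf (0.19 ± 0.08), and 0 of the 18 transcription factors and of the 23 regulators, in edgeR, with 0 called in any list by edgeR.

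The effect of cocaine was not shown to differ between time points in the NAc. In the interaction test of 1 edgeR model over both time points 0 of 7 members were called, as were 3 of 16612 genes (0.0181%), and 0 members were under an unadjusted p of 0.05, where 5.27% of genes were. DESeq2 called 0 members and 10 genes. The log2 difference between the effects, 28 days minus 1 day, was -0.42 ± 0.22 for Egr4 (edgeR unadjusted p = 0.0754), -0.72 ± 0.55 for Egr2 and -0.32 ± 0.25 for Egr1. Of the related lists, 1 of 18 transcription factors, 1 of 24 effectors and 2 of 23 regulators were lower at an unadjusted p under 0.05, none higher, with 0 called by edgeR. These were Nr4a3 (-0.78 ± 0.33), Sgk1 (-0.72 ± 0.25), Arnt (-0.31 ± 0.11) and Elk4 (-0.25 ± 0.09), with edgeR adjusted p of 0.846 or more.

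In the PFC at 28 days, Npas4 had the largest difference. edgeR called 0 of 7 members and 0 of 16340 genes (0%), DESeq2 called 0 members, and Npas4 was the 1 member under an unadjusted p of 0.05 by either tool, where 2.69% of genes were higher at that threshold in edgeR. Npas4 had 3.63, 5.99 and 14.2 RPKM as lowest, median and highest after cocaine and 2.75, 3.80 and 5.98 after saline, with 3 of 6 cocaine libraries above every saline library (log2 fold change 0.72 ± 0.29, edgeR unadjusted p = 0.0256, adjusted p = 0.842). Arc spread the most of all members, from 19.3 to 155 RPKM after cocaine (median 56.4) and from 21.7 to 81.4 after saline (median 36.1), and its log2 fold change of 0.64 ± 0.45 lay within that spread. Cocaine library 6 was the highest of its group for 6 of 7 members. Without it the log2 fold change was 0.36 for Npas4 (edgeR unadjusted p = 0.0964) and 0.18 for Arc. Without saline library 4, the library with medium spiny markers, it was 0.62 for Npas4 and 0.50 for Arc. Among the related lists only the prostaglandin synthase gene Ptgs2 (0.32 ± 0.12, edgeR adjusted p = 0.842) and Camk2a (0.13 ± 0.06, edgeR adjusted p = 0.842) were under an unadjusted p of 0.05.

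In the VTA at 28 days the members had no common direction, with 2 of the 6 tested above 0. Ier2 was lower after cocaine, beside edgeR log2 fold changes of -0.07 ± 0.28 for Egr1, -0.13 ± 0.28 for Egr4 and -0.22 ± 0.16 for Arc. Those of Egr3 (0.26 ± 0.39) and Npas4 (0.32 ± 0.26) were above 0. Of 6 members tested edgeR called 0 and of 16937 genes 0 (0%), DESeq2 called 0 members, and Ier2 was the 1 member under an unadjusted p of 0.05 by either tool, where 6.39% of genes were lower at that threshold in edgeR. Ier2 had 2.29, 3.12 and 3.60 RPKM as lowest, median and highest after cocaine, and the 5 saline libraries had 4.58, 2.45, 3.47, 7.21 and 4.38 RPKM. The groups overlapped, and the log2 fold change was -0.55 ± 0.23 (edgeR unadjusted p = 0.0347, adjusted p = 0.414). Saline library 4 was the highest of its group for all 6 members tested, with 10.9 RPKM of Egr1 against 3.14 to 5.28 in the other 4 libraries. It also held the highest cortical marker sum of the table, 112 RPKM against 41.2 to 78.5 RPKM in the other 10 libraries, whose part was not tested. Without it Ier2 was at -0.31 (edgeR unadjusted p = 0.14) and Egr1 turned from -0.07 to 0.28. All 24 markers of oligodendrocytes, endothelium and microglia also had log2 fold changes below 0 in this table, with medians of -0.41, -0.42 and -0.36, and 3, 3 and 2 of 8 were at an unadjusted p under 0.05. Their sums ran from 2750 to 4912 RPKM after cocaine and from 3960 to 7664 after saline for oligodendrocytes, from 85.2 to 128 and from 94.4 to 214 for endothelium, and from 111 to 188 and from 168 to 325 for microglia. No marker was called by edgeR, and their part in the values of Ier2 was not tested. Of the related genes at an unadjusted p under 0.05, 3 effectors were lower, Dusp5 (-0.88 ± 0.30), Ptgs2 (-0.80 ± 0.34) and Gadd45g (-0.33 ± 0.14), while 4 regulators were higher, among them Crtc1 (0.36 ± 0.07) and Camk2a (0.74 ± 0.22), and Elk4 (-0.41 ± 0.10) was lower, with 0 called by edgeR.

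**Figure D3:**
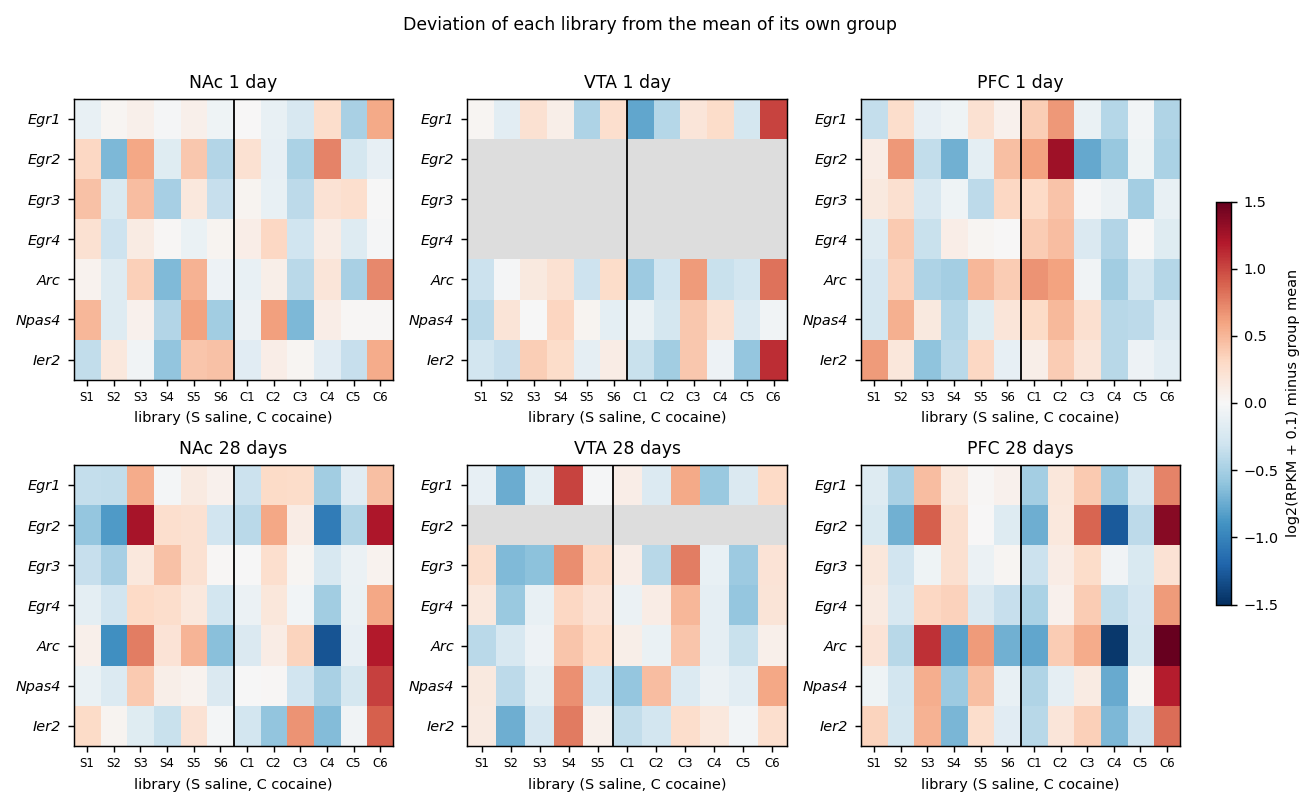
Deviation of each library from the mean of its own group, as log2(RPKM + 0.1), for the 7 genes in the 6 tables; S are saline and C cocaine libraries, red is above and blue below the group mean, and grey rows are genes below the filter. Whole columns share a colour, as in cocaine library 6 (red) and cocaine library 4 (blue) of the NAc and PFC at 28 days.

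The spread between libraries of a group was large for these genes and was shared by them. In edgeR's estimate, which separates counting noise from variation between libraries, the biological coefficient of variation of Arc in the PFC at 28 days was 52.3%, above 99.3% of genes, and that of Egr2 was 49.8%, against a median of 10.6% over all genes. Over all tables and members tested, the estimate exceeded that of at least 61.7% of genes. Egr3 was the steadiest in the PFC at 28 days, at 13.9%.

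Egr1's deviations from the group mean were set against those of each other member in each table. All 36 correlations over 11 or 12 libraries were above 0, with a median Pearson's r of 0.74 and a median Spearman's rho of 0.67. After Benjamini-Hochberg adjustment over the 36, 23 of Pearson's and 12 of Spearman's passed 0.05 by permutation within groups. The other member had passed the low-value filter in 32 of the 36 relations, of which 22 of Pearson's passed. The closest pair was Egr1 and Egr2 in the PFC at 28 days (r = 0.98, rho = 0.99, permutation p = 1e-05 for both, the smallest the permutations can give), which stood at r = 0.97 without the 2 libraries farthest from the median of Egr1. In the NAc at 1 day the median r was 0.28, and only Arc passed there, for r (r = 0.74, rho = 0.69, permutation p = 0.00324 and 0.0214, adjusted p = 0.013 and 0.0515). Arc had the highest floor of all members, with r between 0.74 and 0.86 over the 6 tables. With the 2 farthest libraries left out, 35 of 36 stayed above 0, with a median r of 0.53, and the exception was Egr3 in the NAc at 1 day (-0.01). The points of a correlation share libraries, depth and tissue makeup.

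Among 13813 other genes tested in all 6 tables, the 8 whose deviations followed the mean of the 7 members best were, in order, Nr4a1, Dusp1, Fos, Fosl2, Nab2, Hexim1, Dusp5 and Sik1. Their mean Pearson's r over the 6 tables was 0.85 for Nr4a1, 0.84 for Dusp1, 0.83 for Fos and 0.71 for Sik1, against a median of 0.02 over all these genes, given as a description over 11 or 12 libraries a table. Of the 8, 3 were in the list of other early response transcription factors, 3 in that of other effectors and 1, the Egr co-repressor gene Nab2, in that of regulators and partners. Hexim1, an inhibitor of the elongation factor P-TEFb, was in none.

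Saline mice had more RNA of all 7 genes in the NAc at 28 days than at 1 day, but the time points came as separate tables, so that time, age and data set cannot be told apart. In edgeR 7 of 7 members were called higher, where 31.4% of genes were called higher and 31.8% lower. The log2 difference was 2.82 ± 0.16 for Egr4, 2.12 ± 0.27 for Ier2, 1.74 ± 0.17 for Egr3, 1.66 ± 0.32 for Arc, 1.54 ± 0.40 for Egr2, 0.79 ± 0.18 for Egr1 and 0.78 ± 0.24 for Npas4. Egr4 ran from 1.27 to 1.88 RPKM at 1 day and from 8.91 to 13.4 at 28 days, with no overlap. In the PFC 6 of 7 were called, all higher, where 33.8% of genes were, and in the VTA 4 of 6 tested, where 26.2% were. The PFC comparison included saline library 4 at 28 days, and 7 of the 8 medium spiny markers were also called higher in it. The VTA comparison included saline library 4 at 28 days, the highest of its group for all 6 members tested. Neither comparison was repeated without these libraries, and their part was not tested. Egr4 led in both regions, at 2.86 ± 0.20 in the PFC and 3.53 ± 0.58 in the VTA, followed by Ier2 at 2.55 ± 0.27 and 2.52 ± 0.30, and Npas4 was not called in either region (edgeR adjusted p = 0.0627 and 0.127). Egr4 and Egr3 had failed the filter in the VTA at 1 day, with 0 to 4 and 3 to 9 reads per saline library. They entered the VTA time comparison through the 28-day libraries, so the lead and call of Egr4 there were favoured in advance.

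Over all genes, the difference between the time points moved with the GC content of the transcript. With genes in 10 equal bins of GC content, the median log2 difference in saline NAc climbed from -0.48 in bin 1, the lowest, to 1.01 in bin 10, and in the VTA and PFC bin 10 stood at 0.94 and 1.07. Egr4 (68.4% GC), Egr3 (62.1%), Ier2 (60.9%) and Arc (59.0%) were in bin 10, Npas4 (56.7%) in bin 9, Egr1 (53.5%) in bin 7 and Egr2 (51.4%) in bin 6. Egr2, at 1.54 in the NAc, stood beside a median of 0.03 for its bin, and Npas4, at 0.78, beside 0.59. The part of GC content in the members' values was not tested. The related lists held other genes with such differences in saline NAc, with 10 of 18 early response transcription factors called higher and 0 lower, led by Jund (3.06 ± 0.11), Junb (3.81 ± 0.29) and Jun (1.05 ± 0.15). Of the effectors 11 were higher and 3 lower, led by Vgf (1.70 ± 0.12), Gadd45g (2.06 ± 0.22) and Gadd45b (1.22 ± 0.13), and of the regulators 12 were higher and 6 lower, led by Srf (0.97 ± 0.08), Map2k2 (1.38 ± 0.11) and Crtc1 (0.99 ± 0.10).

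**Figure D4:**
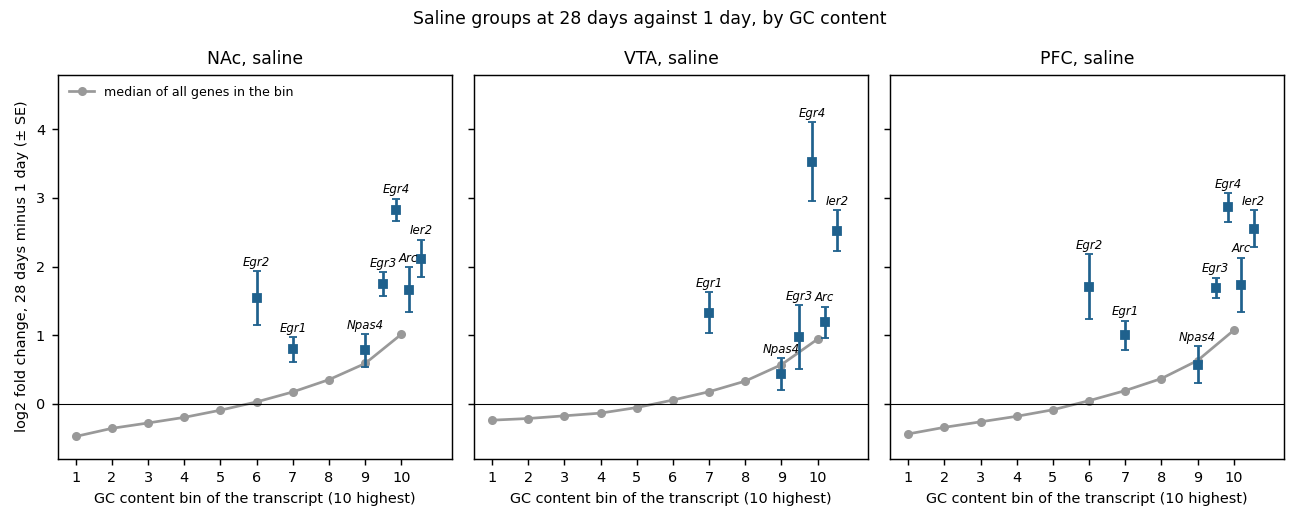
Log2 difference of saline groups, 28 days minus 1 day, against the GC content bin of the transcript in the 3 regions; the grey line is the median of all genes in a bin and blue squares are the members tested ± SE, moved sideways within a bin where they would overlap. Egr4 and Ier2 sit above the line of their bin in every region, and Npas4 sits near it. The VTA value of Egr4 rests on 0 to 4 reads per saline library at 1 day.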

How the data were processed

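RNA-seq of 71 libraries was used, grouped by the labels and, in the 28-day tables, by column names that give the group and a number of their own. The authors aligned reads with STAR 2.4.1d to mm9 and deposited raw counts per gene for 4 tables, and RPKM values, scaled by gene length and library, for the VTA and PFC at 1 day. Each table's log2 fold changes and p-values of the authors were not used, nor were 30 columns of libraries outside this comparison. The 7 genes and the gene lists were chosen with earlier results of these data known.

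Counts were tested over whole tables with edgeR 4.0.16 (R 4.3.3; filterByExpr with a minimum count of 10 and a total of 15, TMM, quasi-likelihood), and RPKM with limma 3.58.1 after adding 0.1 and taking log2, where the mean RPKM reached 0.5. Adjustment was by Benjamini-Hochberg over all genes, with calls at an adjusted p under 0.05. Whole reads were recovered from RPKM for 24779 of 24779 genes with reads (100%, within 0.01 of a read) and gave gene lengths, an alternative test with edgeR and the 1-day side of the time and region comparisons in the VTA and PFC. DESeq2 1.42.0, other scaling, no filter, a pseudocount of 1, a replicate block (at 28 days on the columns' own numbers), a cortical marker covariate and leaving out each library were alternatives. Correlations used 100000 permutations within groups. Scripts were tested on simulated data. In each comparison the 3 genes with the smallest unadjusted p of each list were named where they bear on the members, and the 8 genes most like the members. GC content is that of the longest coding transcript of GENCODE M1 (mm9), found for 89.0% to 89.4% of genes tested. The strand used in counting is not given in the sources used here.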

Additional observations from a re-analysis of the deposited data

Results flagged for a closer look

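In 76 groups of libraries, each of 5 or 6 for 1 member that passed the filter, the highest or lowest library stood apart from the others by a Dixon gap test in 4, where chance alone flags about 1 in 20 groups. Egr1 in saline VTA library 4 at 28 days was at 10.9 RPKM against 5.28 in the next library. Egr2 in saline NAc library 3 at 28 days was at 3.48 RPKM against 1.71. Npas4 in cocaine library 6 at 28 days was at 9.22 RPKM in the NAc against 4.52 in the next library, and at 14.2 RPKM in the PFC against 6.76. All 4 were the highest library of their group and all were at 28 days, but their number lay near the share that chance alone flags. The cause was not tested.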

How the results depend on the processing

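No member was called between cocaine and saline in any of the 6 tables, or in the interaction, under DESeq2 (edgeR on recovered reads for RPKM), DESeq2 size factors, no filter, a pseudocount of 1, the cortical covariate, the replicate block or with any 1 library left out. All 7 members in NAc against VTA, 6 in VTA against PFC and 7 in the NAc time comparison were called under every alternative run on those libraries. Egr2 entered both comparisons with the VTA through the other region. On recovered reads the time comparison called 4 members in the VTA, an alternative chosen after seeing the data, and NAc against PFC called 2 at 1 day. Of the members called in the VTA, Egr4 had only 0 to 4 reads per saline library at 1 day. The median r between Egr1 and the other members, 0.74, was 0.74 over members past the filter and 0.53 without the 2 farthest libraries. In the VTA at 1 day the cortical covariate turned Arc to -0.23 and Ier2 to -0.31. All genes called differed by tool: 2 in edgeR and 21 in DESeq2 in the NAc at 1 day, and at 28 days 0 and 14 there, 0 and 74 in VTA tissue and 0 and 2 in PFC tissue. For the interaction they were 3 and 10. In the VTA at 1 day limma called 28 genes, 2 with no filter, 13 with the replicate block and 0 with the cortical covariate, and edgeR on recovered reads 55.

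Leaving out 1 library turned the direction of members near 0. In the NAc at 1 day Egr3 ranged from -0.15 to 0.0266 and Ier2 from -0.11 to 0.20. In the NAc at 28 days Egr1 ranged from -0.0518 to 0.17, Egr2 from -0.22 to 0.53, Egr4 from -0.15 to 0.0767, Npas4 from -0.10 to 0.29 and Ier2 from -0.0585 to 0.30. Ier2 ranged from -0.14 to 0.20 in the VTA at 1 day, and Egr1 from -0.22 to 0.28 there at 28 days. In the PFC Egr3 ranged from -0.13 to 0.0532 at 1 day, and Egr1 from -0.15 to 0.14, Egr2 from -0.0283 to 0.61 and Egr4 from -0.0829 to 0.16 at 28 days. In the interaction Egr3 ranged from -0.11 to 0.0879, Arc from -0.48 to 0.0341 and Ier2 from -0.12 to 0.30. In NAc against PFC Npas4 ranged from -0.14 to 0.081.

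The replicate numbers of the 1-day libraries were not shown to pair cocaine with saline, a question that 6 pairs a table cannot settle. Deviations of same-numbered libraries correlated at -0.490 to 0.604 in the NAc, -0.266 to 0.447 in the VTA and -0.163 to 0.0715 in the PFC. In the same order 3, 4 and 0 of 6 pairs were above 0.1, and 2, 2 and 0 of 6 cocaine libraries were closest to their own number. With the replicate block 0 members were called in each of the 3 tables, and 2, 13 and 1 genes against 2, 28 and 1 without it. At 28 days the columns carry numbers that differ from those of the labels and are not tied to a mouse, and a replicate block on them was added after seeing the data. It called 0 members between cocaine and saline in each region, where it turned Egr1 in the PFC to -0.0165, and same-numbered libraries correlated above 0.1 for 2 of 6 pairs in the NAc, 3 of 5 in the VTA and 0 of 6 in the PFC. Between saline NAc and PFC, where 4 of 6 pairs did (-0.0936 to 0.342) and 4 of 6 NAc libraries were closest to their own number, the block called 5 members against 1 without it on the same libraries. Egr1 (-0.28, edgeR adjusted p = 0.00295), Egr2 (0.42, 0.0152), Egr4 (0.23, 0.0358) and Arc (-0.71, 0.00552) joined Ier2, so the call of Ier2 alone rests on treating the libraries as independent. The block called 8448 genes there against 8274, and it left 7 members called in NAc against VTA and 6 in VTA against PFC.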

Other observations

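At 28 days, the columns with the highest and lowest mean deviation of their group for these genes carried the same numbers in the NAc and PFC. Cocaine library 6 was the highest of its group for 6 of 7 members in both regions, with mean deviations from the group of 0.77 in the NAc and 0.93 in the PFC on the log2 scale. Cocaine library 4 was the lowest for 7 of 7 members in the NAc and for 5 of 7 in the PFC (-0.68 and -0.73). Saline library 3 was the highest for 5 of 7 members in each (0.46 and 0.54), and saline library 2 the lowest for 5 of 7 and 3 of 7 (-0.44 and -0.38). Among the numbers between the ends, saline library 1 (-0.16 in the NAc and 0.05 in the PFC) and saline library 4 (0.13 and -0.15) went opposite ways and the others the same way. Members that vary together are not separate observations, and the share over all genes is not given here. In the VTA saline library 2 was also the lowest, for 5 of 6 members tested (-0.55), but the highest were saline library 4 (0.65) and cocaine library 3 (0.38), with cocaine library 6 at 0.27 and cocaine library 4 at -0.14. The labels do not say whether a number marks the same mouse in different regions, and the relation was noticed after seeing the values.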
